A study of Mus musculus with 16 samples.

Results

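The genes described here are 9 components of Wnt signalling, Wnt4, Wnt5a, Wnt6, Rspo1, Rspo3, Sfrp1, Sfrp2, Axin2 and Lef1, chosen by symbol, which are 9 of the 30451 genes of a single-cell UMI table from mouse testes at postnatal day 2. Whole testes of wild type mice were compared with testes of a germ-cell-specific Ddx5 knockout, in which floxed Ddx5 was removed by Cre under the germ cell promoter Mvh. Because this Cre is directed at germ cells and is expressed from late embryonic life, the somatic cells that hold most of the 9 genes were not its target. An Oct4-GFP transgene marked germ cells in the study, which picked its germ cells by GFP and CRE counts, and the germ gate used here does not use either. The labels number 8 samples per genotype, but the barcodes carry only 1 suffix per genotype, so each genotype was 1 library, its animals and sequencing lanes could not be separated, and no test between genotypes was possible. By the labels 4 of the 8 wild type samples ran in lane 2 and 4 of the 8 knockout samples in lane 4, the others of both in lane 3, so lane differed in part with genotype, and since no barcode names its lane lane and genotype cannot be told apart here.

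Wnt proteins are secreted ligands that bind Frizzled receptors. In the canonical branch they stabilise β-catenin, which acts with TCF and LEF factors on target genes, and Axin2 and Lef1 are among the targets most often read out. R-spondins do not bind Frizzled but protect it from removal by the E3 ligases Rnf43 and Znrf3, and secreted Frizzled-related proteins such as Sfrp1 and Sfrp2 bind Wnt ligands outside the cell. In the gonad Rspo1 and Wnt4 are best known for their part in ovarian development, and Wnt5a acts largely through branches that do not use β-catenin.

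Cells were kept at 2000 genes or more and 10% mitochondrial UMIs or less, which left 6329 wild type cells and 4950 of the library labelled Ddx5 knockout, with medians of 11170 and 11668.5 UMIs per cell. Cell types were gated on UMIs of marker genes, none of which is among the 9. Sertoli cells (Amh, at least 3 UMIs) numbered 2256 in the wild type library and 1635 in the library labelled knockout, Leydig cells (Cyp11a1, Cyp17a1 and Hsd3b1, at least 20) 177 and 143, myoid cells (Acta2 at least 5, Myh11 at least 2) 764 and 524, stroma cells (Pdgfra at least 1, Amh at most 2) 3590 and 3005, and germ cells (at least 3 of Dazl, Ddx4, Mael and Stk31) 125 and 12. A sixth gate on Pax8, Ecrg4 and Cnmd held 47 and 9 cells, of which 37 over both libraries were also in the Sertoli gate, and Sertoli markers (3521 and 3070 CPM, that is UMIs per 1000000) outweighed its own markers (1191 and 230 CPM), so its sums mix both. Gates could share cells: 1152 cells passed both the myoid and the stroma gate, which left only 90 and 46 myoid cells outside stroma, and 61 of the 125 wild type germ cells and 4 of the 12 in the other library also passed another gate. The other gates, and one for macrophages with 31 and 22 cells, were each led by their own marker list. A gate on Pecam1 and Cdh5 is not used, since 740 of its 765 wild type cells passed another gate. Ddx5 itself went against the label: in the germ gate it stood at 1152 CPM (95% Poisson interval 1120 to 1185) in the wild type library and 1736 (1618 to 1860) in the library labelled knockout. The position of the deleted exons relative to the 3′ ends counted here is not given in the sources used here, so this value does not check the deletion. The transgenes went with the label: GFP was counted in germ-gated cells of both libraries (450 UMIs, 104 CPM, and 22 UMIs, 47.5 CPM), while CRE was at 0 in all wild type cells kept and had 20 UMIs in the library labelled knockout, all 20 in germ-gated cells (43.2 CPM, 26.4 to 66.7). No file used here ties a barcode suffix to a genotype, and the map came with the rule that chose the members, so the second library is called by its label throughout.

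Promoter sequence is shown for the ligand with the clearest Sertoli pattern and for the pair of target genes. Upstream windows from RefSeq (GRCm38.p6) covered Wnt4, Wnt6, Rspo1, Sfrp2, Axin2 and Lef1, 6 of the 9 genes, and the 250 bases before each start were searched on both strands for the 4 TCF/LEF words that open with CTTTG and close with AA, AT, TA or TT, and at least 1 of these words was in 14.8% of 32851 mouse promoter windows of that length. Capitals mark a match, and letters are otherwise in lower case. The Wnt6 window, chr1:74771642-74771891 on the plus strand, lies directly before the gene and overlaps no annotated gene. The Axin2 window, chr11:108920099-108920348 on the plus strand, is likewise free of annotated genes. Lef1 has several annotated starts, and the window shown, chr3:131156044-131156293 on the plus strand, precedes the fourth of them and lies within Lef1 outside its exons.
Wnt6: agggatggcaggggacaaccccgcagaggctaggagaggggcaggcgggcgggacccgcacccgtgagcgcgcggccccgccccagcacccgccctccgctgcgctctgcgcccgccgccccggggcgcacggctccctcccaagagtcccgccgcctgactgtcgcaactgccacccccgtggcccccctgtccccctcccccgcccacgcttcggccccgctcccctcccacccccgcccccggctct
Axin2: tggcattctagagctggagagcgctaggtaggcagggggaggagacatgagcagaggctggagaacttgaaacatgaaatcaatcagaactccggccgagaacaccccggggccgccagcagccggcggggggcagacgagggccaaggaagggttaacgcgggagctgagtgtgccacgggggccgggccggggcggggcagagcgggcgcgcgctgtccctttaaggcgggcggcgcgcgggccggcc
Lef1: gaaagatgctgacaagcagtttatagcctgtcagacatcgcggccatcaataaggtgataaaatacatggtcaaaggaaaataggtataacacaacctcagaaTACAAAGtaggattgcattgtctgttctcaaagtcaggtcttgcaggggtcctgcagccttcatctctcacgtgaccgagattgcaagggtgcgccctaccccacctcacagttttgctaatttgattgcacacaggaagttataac
Of 9 windows searched, 4 of them at Lef1 starts, only 1 held a word: those of Wnt4, Wnt6, Rspo1, Sfrp2 and Axin2 and the other 3 of Lef1 held none, and the Lef1 window shown, chosen for its match, held TACAAAG, the reverse complement of CTTTGTA, with its first letter 147 bases before the start. These are matches of letters in a window and not binding sites, and the count data do not measure binding.

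Of the ligands, Wnt6 was highest in Sertoli cells, the supporting cells that surround germ cells in the tubule. Summed over Sertoli cells it reached 411 CPM (404 to 417, 15175 UMIs) in the wild type library and 428 CPM (420 to 435) in the library labelled knockout. Stroma cells followed at 119 (116 to 123) and 122 (118 to 126) CPM, so the Sertoli level was 3.44 and 3.51 times that of stroma, and Leydig cells (85.7 and 76.2 CPM) and myoid cells (57.7 and 58.3 CPM) were lower. The intervals of Sertoli and stroma cells did not overlap in either library. The order below stroma depended on cells shared between gates: myoid cells outside the stroma gate stood above stroma, at 174 CPM (154 to 196) and 228 (197 to 263), with 57 of them over both libraries also in the Sertoli gate, and Leydig cells in no other gate stood at 36.0 (28.0 to 45.7) and 50.6 (40.8 to 62.0). The Pax8 gate stood between them at 242 CPM in both, but its 18 wild type cells outside the Sertoli gate held 1 Wnt6 UMI (3.67 CPM, 0.0929 to 20.5), whereas 209 UMIs were counted in all 47.

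Wnt5a, a ligand best known for signalling independent of β-catenin, was highest in cells of the interstitium. In wild type it was highest in Leydig cells, the steroid-producing cells between the tubules, at 220 CPM (204 to 238), followed by stroma at 163 (159 to 167), myoid cells at 71.7 (66.5 to 77.1) and Sertoli cells at 31.6 (29.8 to 33.5). In the library labelled knockout Leydig cells (203 CPM, 187 to 221) and stroma (198 CPM, 193 to 203) overlapped in their intervals, with myoid cells at 79.3 and Sertoli cells at 42.4 CPM. The order of Leydig and stroma cells was thus clear of counting error only in wild type. Among cells in no other gate Leydig cells stood at 243 CPM (222 to 267) and stroma at 188 (183 to 193) in wild type. In the other library that order turned, at 201 (181 to 223) and 227 (221 to 232), with intervals that overlapped. The Leydig ratio, library labelled knockout over wild type, was 0.923 (0.824 to 1.03) over the gate and 0.827 (0.719 to 0.951) in cells of no other gate.

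Wnt4, a ligand of the developing gonad and kidney, was shared by stroma and the contractile myoid cells of the tubule wall. Stroma held 49.3 CPM (47.1 to 51.6) and myoid cells 44.7 (40.7 to 49.1) in wild type, and 60.3 (57.7 to 63.0) and 61.8 (56.1 to 67.8) in the library labelled knockout, so these neighbours overlapped in both. Leydig cells held 18.3 and 34.4 CPM and Sertoli cells 5.22 and 7.95 CPM. Stroma thus exceeded Sertoli cells 9.44-fold and 7.59-fold, the reverse of the order for Wnt6. Since most myoid cells are also stroma cells, the comparison of these neighbours shares cells. Myoid cells outside the stroma gate were lower, at 30.0 and 46.1 CPM (49 and 39 UMIs), with 57 of them over both libraries also in the Sertoli gate. Stroma cells in no other gate stood at 50.8 (48.3 to 53.5) and 60.1 (57.2 to 63.2). With cells of more than 1 gate left out of every type, myoid cells were instead highest in both libraries.

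**Figure D1:**
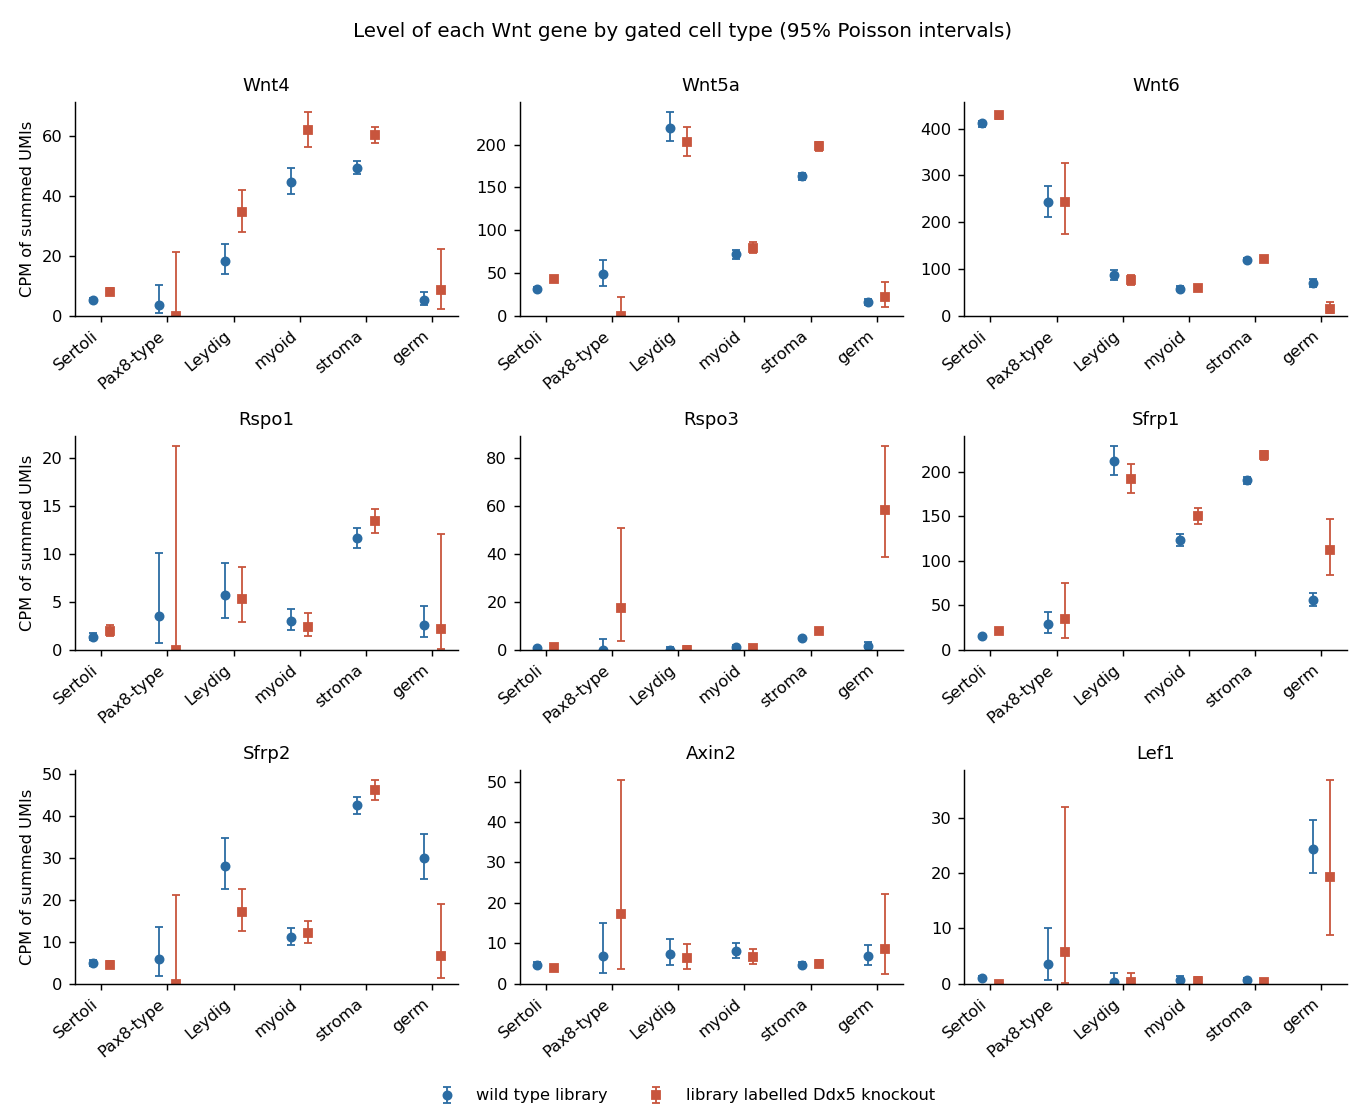
Level of each of the 9 genes in CPM of summed UMIs (vertical axis, from 0) in the 6 gated cell types (horizontal axis), for wild type (circles) and the library labelled Ddx5 knockout (squares), with 95% Poisson intervals that cover counting error only. Wnt6 is highest in Sertoli cells, Wnt5a and Sfrp1 in Leydig and stroma cells, Wnt4 in stroma and myoid cells, and Lef1 in germ cells.

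Among Sertoli, Leydig, myoid and stroma cells both R-spondins were highest in stroma. Rspo1 stood at 11.6 CPM (10.6 to 12.7) in wild type stroma and 13.4 (12.2 to 14.7) in the library labelled knockout. Leydig cells (5.64 and 5.22 CPM), myoid cells (2.99 and 2.39) and Sertoli cells (1.33 and 1.93) were all lower, with intervals that did not overlap that of stroma. Rspo3 stood at 4.69 CPM (4.04 to 5.43) in wild type stroma and 7.84 (6.92 to 8.85) in the library labelled knockout, and at 0.595 and 0.864 CPM in Sertoli cells. Not 1 Rspo3 UMI was counted in 177 wild type and 143 other Leydig cells, which allows a share of cells with a UMI of up to 2.06% and 2.55% (Clopper-Pearson upper limits).

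The inhibitors Sfrp1 and Sfrp2 were both far lower in Sertoli cells than in stroma, and Sfrp2 was also low in myoid cells. Sfrp1 reached 190 CPM (186 to 194) in wild type stroma, 212 (196 to 229) in Leydig cells and 123 (116 to 130) in myoid cells, and 218, 192 and 150 CPM in the library labelled knockout. Leydig cells exceeded stroma in the wild type library and stroma exceeded Leydig cells in the other library, in both cases without overlap of the intervals. Among cells in no other gate the wild type order turned, with 164 CPM (147 to 184) in Leydig cells and 204 (198 to 209) in stroma. Sfrp2 reached 42.6 CPM (40.6 to 44.7) in wild type stroma and 46.2 (43.9 to 48.6) in the other library, and in myoid cells only 11.1 and 12.1 CPM, a stroma excess of 3.85-fold and 3.83-fold. In Sertoli cells Sfrp1 stood at 15.2 and 21.0 CPM and Sfrp2 at 4.84 and 4.49 CPM.

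The feedback target Axin2, itself a brake on β-catenin, stayed below 10 CPM in every gate except the 9 Pax8-gated cells of the library labelled knockout (17.3 CPM, 3 UMIs). In wild type it ran from 4.62 CPM (3.97 to 5.34) in stroma and 4.65 (3.98 to 5.40) in Sertoli cells to 7.97 (6.32 to 9.92) in myoid cells, whose interval lay above both. In the library labelled knockout myoid cells (6.46 CPM, 4.73 to 8.62) lay above Sertoli cells (3.77, 3.09 to 4.54) but overlapped stroma (4.95, 4.22 to 5.76). Germ cells (6.71 and 8.63 CPM) and Leydig cells (7.31 and 6.26 CPM) overlapped myoid cells in their intervals. Macrophages, used below as the background type, held 2 Axin2 UMIs in wild type (3.52 CPM, 0.426 to 12.7) and 0 in the other library (up to 7.35 CPM), and the intervals of all 6 gates overlapped these, so no Axin2 level was clear of background.

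Lef1, a DNA-binding partner of β-catenin, lay in the germ cells. It held 106 UMIs in 61 of the 125 wild type germ cells (24.5 CPM, 20.1 to 29.7) and 9 UMIs in 4 of the 12 cells of the other library (19.4 CPM, 8.88 to 36.9). Among germ cells in no other gate it stood at 26.5 CPM (57 UMIs) and 27.0 CPM (8 UMIs), a ratio of 1.02 (0.421 to 2.15). Stroma, myoid and Leydig cells held at most 0.698 CPM in either library, and the Pax8 gate 3 UMIs in the wild type library and 1 in the other. Sertoli cells held 39 UMIs in the wild type library and 0 in the other library, but once the 39 Sertoli cells that also passed the germ gate were left out, 7 of those UMIs remained in 2217 cells (0.198 CPM).

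Shares of cells with a UMI were compared after every cell had been thinned to 5000 UMIs, and macrophages served as the background type for free RNA, although 9 of 31 and 9 of 22 of them also passed another gate. Their median depth was 17546 UMIs in wild type, against 13711 in Sertoli and 9838.5 in stroma cells. Wnt6 was found in 83.1% (Clopper-Pearson interval 81.4 to 84.6) of 2237 wild type Sertoli cells and 40.2% (38.6 to 41.8) of 3524 stroma cells, against 6.67% (0.818 to 22.1) of 30 macrophages. Before thinning the same shares were 97.2%, 58.4% and 16.1%. The thinned Wnt6 shares of wild type Leydig (16.9%) and myoid cells (16.8%) lay inside the macrophage interval, as did the level of wild type Leydig cells in no other gate (macrophages 28.1 CPM, 16.1 to 45.7), and in the other library so did the whole-gate levels of both types (macrophages 53.8 CPM, 35.5 to 78.3). Wnt5a was found in 62.7% (55.1 to 69.9) of Leydig cells and 44.8% of stroma cells, while its 12.7% in Sertoli cells lay within the interval of the macrophages (10%, 2.11 to 26.5) and was not separated from background. Wnt4 was found in 19.1% of stroma and 18.5% of myoid cells and in 1.70% of Sertoli cells, the last within the interval of the macrophages (0 of 30, 0 to 11.6%). Rspo1 at 5.28% and Rspo3 at 2.07% of stroma cells also lay under the upper bounds of the macrophages, 17.2% and 11.6%, so their shares do not separate stroma from background. Of their summed levels in stroma, that of Rspo1 in wild type lay clear of the macrophage interval (0.0445 to 9.79 CPM), and the other 3 overlapped it. Sfrp2 had 0 UMIs in wild type macrophages (up to 6.48 CPM) and 9 in those of the other library (17.9 CPM, upper bound 34.1), an interval that held the Leydig level there and lay below that of stroma. Sfrp1 was found in 54.6% of stroma cells, against 6.67% (0.818 to 22.1) of macrophages, and Wnt5a together with Sfrp1 in 26.2% of stroma cells.

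**Figure D2:**
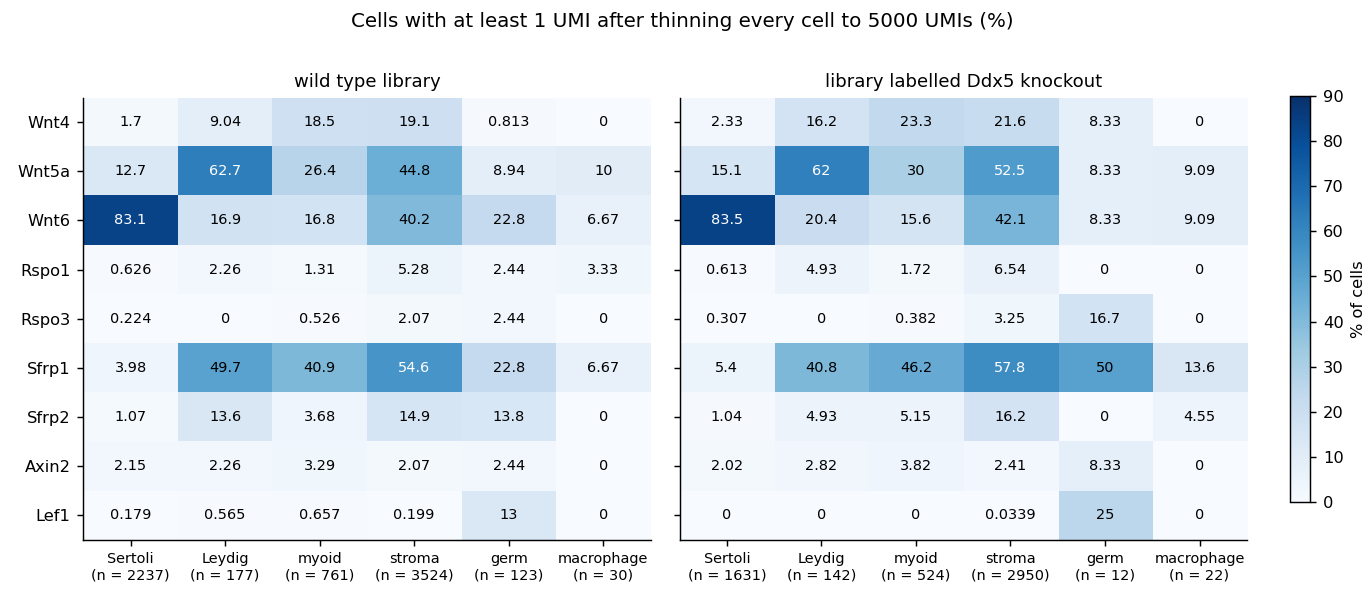
Percent of cells with at least 1 UMI of each gene after thinning to 5000 UMIs, by cell type, for wild type (left) and the library labelled Ddx5 knockout (right), with the number of cells under each column and the value printed in each field. Wnt6 in Sertoli cells (83.1% and 83.5%) and Wnt5a in Leydig cells (62.7% and 62.0%) stand out, and macrophages give the background.

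Within the stroma the R-spondins and Sfrp2 followed 1 subset of cells. Stroma cells with more Lum, Dpt and Aspn UMIs (557 in wild type, 605 in the other library) were set against those with more Tbata, Cyp26b1 and Smoc2 UMIs (2518 and 2061), groups whose median depths were close, at 9260 and 10135.5 UMIs in wild type. Rspo3 was 14.1 CPM in the Lum/Dpt/Aspn cells and 3.12 CPM in the others in wild type, a ratio of 4.53 (3.30 to 6.21), and 15.4 against 6.08 CPM in the library labelled knockout, a ratio of 2.54 (1.94 to 3.31). Sfrp2 was 93.2 against 35.3 CPM, a ratio of 2.64 (2.37 to 2.93), with 2.67 (2.40 to 2.97) in the other library. Rspo1 was 22.2 against 10.4 CPM, with ratios of 2.14 (1.72 to 2.65) and 2.02 (1.64 to 2.48). Wnt5a (1.25 and 1.33) and Sfrp1 (1.14 and 1.21) were higher in the same cells by smaller steps, and the intervals of Wnt4 and Axin2 held 1 in both libraries. Wnt6 stood at 1.15 (1.06 to 1.24) in wild type and 1.07 (0.991 to 1.15) in the other library, and the difference was not tested.

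The cells that passed both the stroma and the myoid gate, 674 in the wild type library and 478 in the other library, held less of most of these genes but not of Wnt4. Relative to stroma cells in no other gate, Wnt6 stood at 0.244 (0.216 to 0.275) in the wild type library and 0.244 (0.212 to 0.279) in the other library, Wnt5a at 0.401 and 0.354, Sfrp2 at 0.220 and 0.236, and Rspo1 at 0.243 and 0.155. Rspo3 was down to 5 UMIs in wild type cells and 6 in those of the other library (ratios 0.0986 and 0.104, intervals up to 0.235). Sfrp1 was reduced less, at 0.654 and 0.665, and Wnt4 was level, at 0.937 (0.837 to 1.05) and 1.06 (0.950 to 1.19). Axin2 went the other way, at 8.09 against 3.48 CPM in wild type, a ratio of 2.33 (1.69 to 3.19), while its ratio in the library labelled knockout, 1.43 (0.973 to 2.07), held 1 in its interval.

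Cycling stroma cells, those with at least 2 UMIs of Mki67 and Top2a, held less Wnt4 (34.0 against 56.4 CPM in cells with none, ratio 0.603, 0.538 to 0.674), less Sfrp2 (0.541, 0.477 to 0.611) and less Sfrp1 (0.715, 0.677 to 0.755) in wild type. The library labelled knockout gave 0.661, 0.513 and 0.718 for the same genes. Wnt5a was slightly higher in the cycling cells, at 1.12 (1.06 to 1.18) in wild type. Cycling Sertoli cells held less Wnt6, 372 against 472 CPM in wild type (0.788, 0.762 to 0.815) and 397 against 470 in the other library (0.844, 0.813 to 0.877). Cycling cells were deeper, with medians of 14200 against 9237 UMIs in wild type stroma, and the part of depth in these ratios was not tested.

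**Figure D3:**
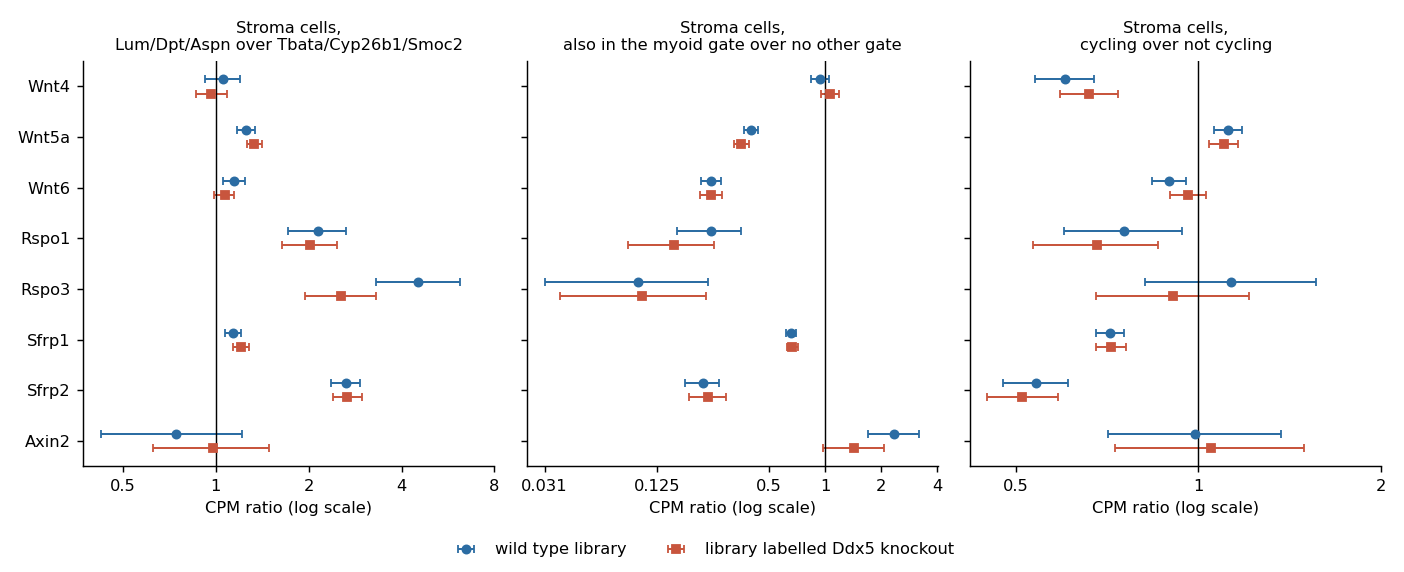
CPM ratio (log scale) within stroma cells for 8 of the genes, between Lum/Dpt/Aspn and Tbata/Cyp26b1/Smoc2 cells (left), between cells also in the myoid gate and cells in no other gate (middle) and between cycling and non-cycling cells (right), with exact conditional 95% intervals. Circles are wild type and squares the library labelled Ddx5 knockout. Rspo3, Rspo1 and Sfrp2 lie above 1 on the left, all but Wnt4 and Axin2 lie below 1 in the middle, and Wnt4, Sfrp1, Sfrp2 and Rspo1 lie below 1 on the right, in both libraries.

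Between the libraries most somatic ratios of the 9 genes stayed within 1.5-fold. A gene was counted as past the fold when its CPM was at least 1.5-fold apart with at least 50 UMIs over both libraries in that type. This held for 1 of 7 genes in Sertoli cells, where 7.42% of all genes tested passed it, and for 2 of 5 in Leydig cells, where 5.95% did. It held for 1 of 8 in stroma (5.29% of all genes), for 0 of 6 in myoid cells (4.62%) and for 0 of 1 in the Pax8 gate (33.1%). The median ratio, library labelled knockout over wild type, was 1.34 for the 7 genes in Sertoli cells and 1.15 for the 8 in stroma, beside medians of 0.989 and 0.996 over all genes tested there. In Leydig cells it was 0.905 beside 1, in myoid cells 1.1 beside 0.995 and in germ cells 0.792 beside 0.563.

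Rspo3 was the gene past the fold in stroma. It was counted 183 times in the wild type library and 260 times in the library labelled knockout, a ratio of 1.67 (1.38 to 2.03). The ratio was 1.95 (1.49 to 2.58) in the Tbata/Cyp26b1/Smoc2 cells and 1.09 (0.805 to 1.49) in the Lum/Dpt/Aspn cells, in which the level of Rspo3 was higher in both libraries. The difference between these ratios was not tested. Over the stroma gate the 6 macrophage markers, all detected in both libraries, went from 46.8 to 118 CPM. The 6 stroma markers summed to 5246 and 5360 CPM, among them Lum at 103 and 153 CPM and Dlk1 at 1967 and 1680 CPM, and the Lum/Dpt/Aspn cells were 557 of 3590 and 605 of 3005. The part of these in the Rspo3 ratio was not tested.

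Wnt4 was the member past the fold in Sertoli cells (5.22 against 7.95 CPM, ratio 1.52, 1.25 to 1.85) and stood at 1.48 (1.21 to 1.80), under the fold, once cells of the germ gate were left out. It was also past it in Leydig cells (18.3 against 34.4 CPM, ratio 1.89, 1.34 to 2.67), including those in no other gate (13.2 against 32.4 CPM, ratio 2.45, 1.51 to 4.08), and its ratios in myoid cells (1.38, 1.21 to 1.58) and stroma (1.22, 1.15 to 1.30) lay above 1 as well. In the Sertoli gate the summed level of 6 stroma markers, all 6 detected in both libraries, moved in the same direction, from 422 to 640 CPM, and so did Wnt5a (1.34, 1.24 to 1.46) and Sfrp1 (1.38, 1.23 to 1.55). Both Sertoli levels of Wnt4 lay inside the macrophage interval of their own library, so neither was clear of background. Macrophages held 1 Wnt4 UMI in wild type (0.0445 to 9.79 CPM) and 6 in the other library. The part of stroma RNA or of background in these Sertoli ratios was not tested. In the Leydig gate the stroma markers stood at 337 and 319 CPM and 6 macrophage markers at 103 and 215 CPM. There 5 myoid markers stood at 111 and 56.7 CPM and 8 Sertoli markers at 465 and 545 CPM. The part of these in the Leydig Wnt4 ratio was not tested.

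Sfrp2 was lower in Leydig cells of the library labelled knockout (28.2 against 17.0 CPM, ratio 0.604, 0.416 to 0.868), and in Leydig cells that passed no other gate it stood at 21.2 against 20.9 CPM (ratio 0.985, 0.615 to 1.58). Wnt6 was close to level in Sertoli cells (1.04, 1.02 to 1.07, and 1.01, 0.989 to 1.04, without cells of the germ gate), stroma (1.02, 0.979 to 1.07) and myoid cells (1.01, 0.888 to 1.15). In myoid cells outside the stroma gate the Wnt6 ratio was 1.31 (1.09 to 1.58), and in Leydig cells it was 0.889 (0.739 to 1.07) over the gate and 1.40 (1.01 to 1.95) in cells of no other gate. Axin2 did not pass the fold in the 3 types where it had 50 UMIs, with ratios of 0.809 (0.631 to 1.03) in Sertoli cells, 0.810 (0.551 to 1.18) in myoid cells and 1.07 (0.861 to 1.33) in stroma. Intervals cover counting error only, and spread between animals was not measured.

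**Figure D4:**
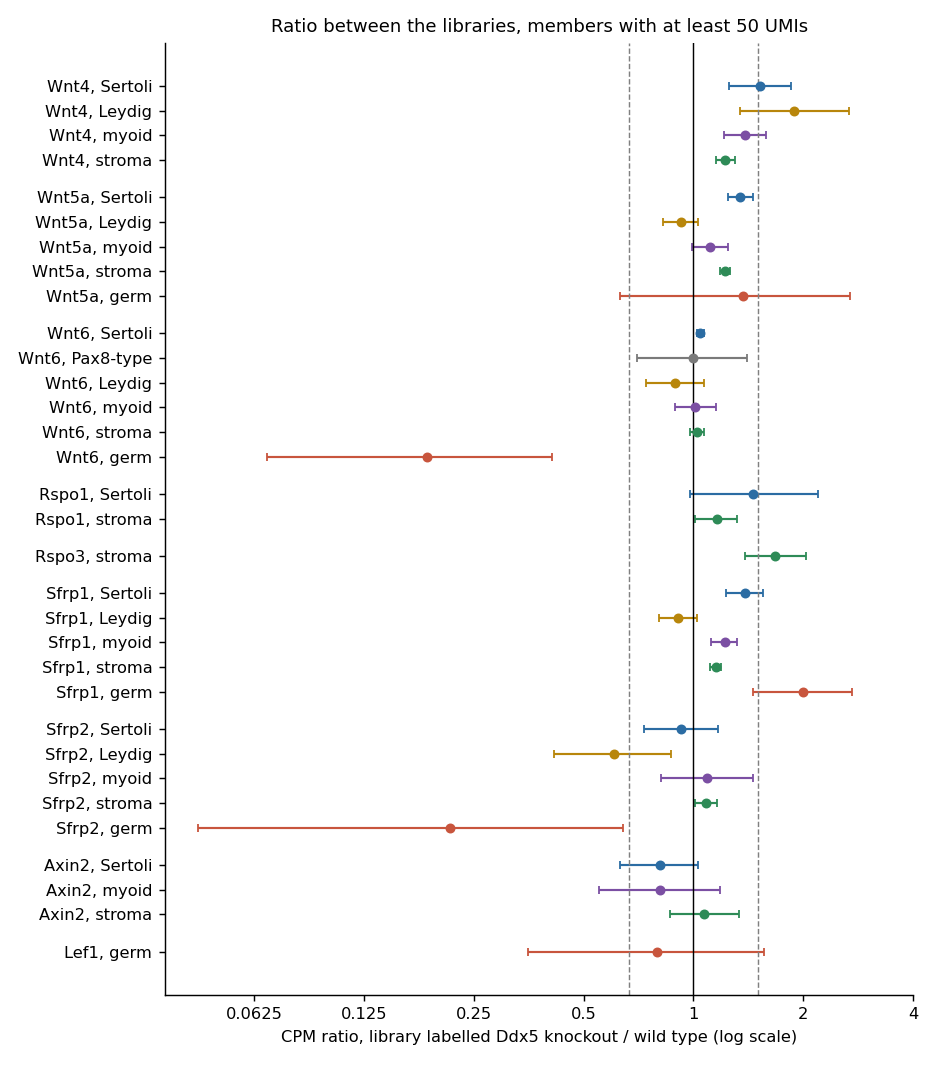
CPM ratio, library labelled Ddx5 knockout over wild type (log scale), for each gene and cell type with at least 50 UMIs, with exact conditional 95% intervals. Dashed lines mark 1.5-fold in either direction, and most somatic ratios lie between them, with Rspo3 in stroma (1.67) and Wnt4 in Sertoli (1.52) and Leydig cells (1.89) above and Sfrp2 in Leydig cells (0.604) below.

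In the germ gate 3 of 5 genes were past the fold, where 70.1% of all genes were, with only 12 cells in the library labelled knockout. Wnt6 went from 69.6 to 13.0 CPM (ratio 0.186, 0.0677 to 0.410), Sfrp2 from 30.1 to 6.48 CPM (0.215, 0.0438 to 0.643) and Sfrp1 from 56.0 to 112 CPM (2.00, 1.46 to 2.71). The summed level of 8 Sertoli markers in the germ gate moved with Wnt6, at 864 CPM in wild type, with 8 of 8 detected, and 43.2 CPM in the other library, with 7 of 8 (Dhh at 0). In germ cells that passed no other gate Wnt6 stood at 10.2 and 10.1 CPM (ratio 0.992, 0.190 to 3.30), and in those that also passed another gate it was 129 CPM in wild type. In the germ cells of no other gate Sfrp1 stood at 51.6 and 64.2 CPM (1.25, 0.723 to 2.04), both inside the macrophage intervals (27.0 to 62.8 and 29.1 to 68.8), while Sfrp2 stayed apart at 38.5 and 10.1 CPM (0.263, 0.0532 to 0.796), on 83 and 3 UMIs.

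Rspo3 fell short of the 50 UMIs in germ cells and is given as values only. It had 6 UMIs in 5 of 125 wild type cells and 27 UMIs in 7 of 12 cells of the library labelled knockout, 1.39 against 58.3 CPM (ratio 42.0, 17.0 to 124). In germ cells of no other gate it had 2 UMIs in 64 cells and 12 UMIs in 8 cells (ratio 43.7, 9.72 to 402). These 12 UMIs lay in 4 of the 8 cells, and no germ cell held more than 8. The 6 stroma markers, all detected in both libraries, summed to 262 and 382 CPM in the germ gate. In the stroma gate they summed to 5246 and 5360 CPM, beside 4.69 and 7.84 CPM of Rspo3 and 190 and 218 CPM of Sfrp1. The part of stroma RNA in the germ values of Rspo3 and Sfrp1 was not tested.

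**Figure D5:**
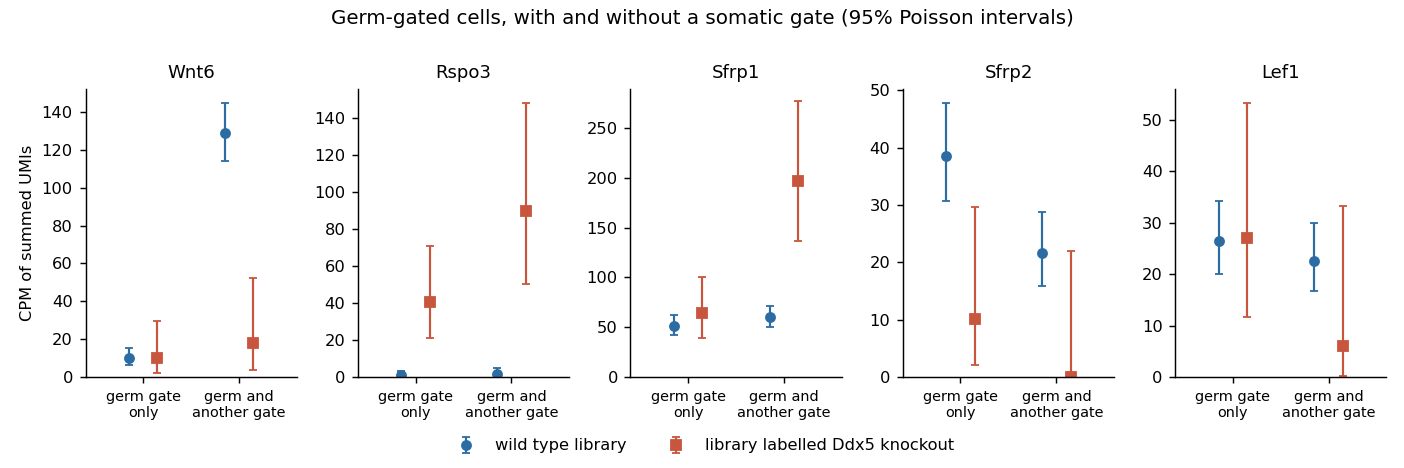
Level in CPM of summed UMIs (vertical axis, from 0) of 5 of the genes in germ-gated cells that passed no other gate and in those that also passed another gate, for wild type (circles, 64 and 61 cells) and the library labelled Ddx5 knockout (squares, 8 and 4 cells), with 95% Poisson intervals. Wnt6 in wild type is higher in the cells of another gate (129 CPM), and Rspo3 is higher in the library labelled knockout in both sets.

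No member led a cell type by the rule used, a level plus 10 CPM at least 2-fold that of every other gated type in both libraries. This was 0 of the 8 genes with enough UMIs, Lef1 not among them, beside 4.05% of 15216 genes. With cells of more than 1 gate left out, Wnt6 led Sertoli cells, beside 6.51% of genes that led a type.

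Of 80 pathway genes listed by role, the 9 members included, 78 were in the table. The counts past the fold over these lists were 5 of 51 in Sertoli cells, 2 of 29 in Leydig cells, 2 of 42 in myoid cells, 2 of 51 in stroma, 3 of 13 in the Pax8 gate and 20 of 28 in germ cells, to be read beside the shares over all genes given above. Among secreted inhibitors Sostdc1, which binds BMPs and the Wnt co-receptor Lrp6, led stroma at 57.8 CPM in the wild type library and 81.4 CPM in the other library. It was past the fold in Sertoli cells (4.09 against 9.12 CPM, ratio 2.23, 1.82 to 2.74), in which the stroma markers were also higher, and in myoid cells (120 against 168 UMIs, ratio 1.97, 1.55 to 2.51). Among R-spondins Rspo4 led germ cells at 22.9 CPM (99 UMIs) and 64.8 CPM (30 UMIs).

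Of the receptors, Fzd9 was lower in Sertoli cells of the library labelled knockout (7.25 against 4.42 CPM, ratio 0.610, 0.490 to 0.755) and Fzd5 in stroma (2.23 against 1.39 CPM, ratio 0.622, 0.425 to 0.898). In stroma cells of no other gate the Fzd5 ratio was 0.672 (0.443 to 1.01), inside the fold and with 1 in its interval. The ligand Wnt9a was past the fold in Sertoli cells, on 25 and 33 UMIs (0.677 and 1.14 CPM, ratio 1.69, 0.972 to 2.96). Ccnd1, a cyclin and frequent target of the pathway, stood at 6.01 and 1.24 CPM in Sertoli cells (0.207, 0.141 to 0.295) and at 1.98 and 1.24 CPM (0.628, 0.408 to 0.952) without the cells that also passed the germ gate. In myoid cells Ccnd1 had 36 and 17 UMIs (0.665, 0.350 to 1.22). In the germ gate Rspo4 and Gsk3b were past the fold upward beside Sfrp1, and Fzd3, Ryk, Dvl1, Dvl2, Axin1, Gsk3a, Csnk1a1 and Tcf7l2 downward beside Wnt6 and Sfrp2, with intervals clear of 1. Wnt3 upward and Wls, Znrf3, Fzd2 and Nkd1 downward were past it with intervals that held 1. Over all genes tested in the germ gate the median ratio was 0.563. The intervals of Ryk, Dvl1, Dvl2, Gsk3a, Csnk1a1, Tcf7l2 and Sfrp2 held that median, and those of Fzd3, Axin1 and Wnt6 lay below it. Ccnd1 there went from 123 to 13.0 CPM and the β-catenin gene Ctnnb1 from 266 to 101 CPM, in a type where 70.1% of all genes were past the fold. In the Pax8 gate Wls was past the fold downward (0.401, 0.157 to 0.862, 87 and 7 UMIs). So were Fzd3 (0.369, 0.132 to 0.839, 81 and 6 UMIs) and Ctnnb1 (0.572, 0.391 to 0.813, 305 and 35 UMIs). Of the gate's markers Ecrg4 was highest in wild type (669 UMIs) and Cnmd in the other library (38 UMIs, beside 1 of Ecrg4). Outside the Sertoli gate lay 18 of 47 wild type cells and 1 of 9 others. The part of this difference in these 3 ratios was not tested. All 9 intracellular transducers stayed within the fold in Sertoli, Leydig, myoid and stroma cells.

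The genes whose levels followed each member most closely were found by Pearson r of log2(CPM + 10) over the 12 sums of 6 gates in both libraries, which share cells and libraries. Wnt6 was followed by Hpcal1 (r = 0.986), Carhsp1 (0.967) and Dynlt1f (0.966), Wnt5a by Ghdc (0.975), Maoa (0.972) and Fah (0.972), and Wnt4 by Irs1 (0.983), H6pd (0.98) and Selenop (0.975). Rspo1 was followed by Afap1l2 (0.976), A830082K12Rik (0.960) and Gm42537 (0.940), and Rspo3 by Fam124a (0.985), Sema3d (0.982) and Ptchd4 (0.978). Sfrp1 was followed by Itpr2 (0.934), Sqle (0.93) and Boc (0.93), Sfrp2 by Frmd5 (0.972), Pianp (0.940) and Pxmp4 (0.907), and Axin2 by Gm29844 (0.916), Fyb (0.912) and Rnf113a2 (0.908). Lef1 had too few UMIs to be ranked. The highest Axin2 sum, 17.3 CPM, was 3 UMIs in 9 Pax8-gated cells, and the highest Rspo3 sum, 58.3 CPM, was 27 UMIs in 12 germ cells. Both were of the library labelled knockout, and the part of these sums in the correlations was not tested. Over the 8 sums of Sertoli, Leydig, myoid and stroma cells other genes came first, such as 4833415N18Rik (0.994) and Aldh1a2 (0.993) for Wnt6 and Hoxc8 for Wnt4 (0.991), so the neighbours depend on the cell types compared. Among the members themselves the closest pair was Rspo1 and Sfrp2 (r = 0.87).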

How the data were processed

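Whole testes of postnatal day 2 mice were dissociated and run on the 10x Chromium 3′ v3 kit, and the authors deposited 1 table of UMI counts per gene and cell, made with Cell Ranger 3.1.0 per the labels' processing notes (GRCm38), which also name Seurat 3.1.5, on a reference that the study's methods extend by GFP and CRE. Of 80 listed pathway genes, 2 were not analysed here. These deposited counts were used unnormalised. Cells were kept at 2000 genes or more and 10% mt- UMIs or less. The barcode suffix gives the library (3 wild type, 4 labelled Ddx5 knockout), and no file ties suffixes to samples, so the map was taken with the rule that chose the members. The suffix with more cells kept is the one taken as wild type, which is also the genotype with more cells in the study, and CRE was counted only in the other. UMIs were summed per gate and library (82916872 and 66208479 UMIs in all) and divided by the total of the sum, per 1000000. Intervals are 95% exact Poisson, conditional binomial or Clopper-Pearson and cover counting error only. With 1 library per genotype no p-value was computed. The 3 count floor is over the group. The 2 libraries share 12 barcode sequences among cells kept. The call rules were run on simulated Poisson sums with planted changes larger than 1.5-fold. These had no spread between cells, animals or libraries, so they do not test calls near 1.5-fold or differences between animals. Named genes were the 9 members, pathway genes leading a type or past 1.5-fold with at least 50 UMIs, and the 3 nearest genes per member. The members and lists were chosen with earlier results of these data known. Doublets were left in, and Scrublet (scanpy 1.11.5), which called 4.65% and 6.06% of cells, served as an alternative. Python 3.11.15, NumPy 2.4.6 and SciPy 1.17.1 were used.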

Additional observations from a re-analysis of the deposited data

Results flagged for a closer look

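Wnt6 lay above wild type in Sertoli cells when the library carrying the knockout label was set against it, and below it in germ cells, the germ ratio being 0.179 of the Sertoli ratio. Sfrp2 lay above wild type in stroma and below it in Leydig and germ cells, the Leydig ratio being 0.557 and the germ ratio 0.198 of the stroma ratio. In each case both counting intervals kept clear of 1 on opposite sides, and the difference itself was not tested. The germ contrast of Wnt6 and the Leydig contrast of Sfrp2 did not show in cells of a single gate, where the ratios were 0.992 (0.190 to 3.30) and 0.985 (0.615 to 1.58), and Wnt6 in Sertoli cells outside the germ gate stood at 1.01 (0.989 to 1.04). The Sfrp2 ratio in stroma was 1.08 (1.01 to 1.16) outside the germ gate, 1.07 (0.993 to 1.15) in cells of no other gate and 1.01 (0.899 to 1.14) in the Lum/Dpt/Aspn cells, the last 2 with 1 inside the interval. The germ ratio of Sfrp2 stood at 0.263 (0.0532 to 0.796) in cells of no other gate.

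Lef1 was higher in the library labelled knockout among cells that passed none of the 6 gates, which no comparison of the report uses. It had 2 UMIs in 224 wild type cells and 9 UMIs in 175 cells of the other library, 0.947 against 5.17 CPM (ratio 5.46, 1.13 to 51.9).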

How the results depend on the processing

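No paired analysis was possible because no barcode names its sample, and the 8 numbered samples of a genotype cannot be told apart. Wnt6 in Sertoli cells was the 1 gene leading a type with exclusive gates, and it also was when only Sertoli, Leydig, myoid and stroma, only Sertoli, Leydig, stroma and germ, or only the exclusive Sertoli, Leydig and stroma gates were compared (1 of 8 each, beside 6.51%, 6.09%, 9.93% and 11.7% of all genes in these 4 settings). The other settings tried for that rule gave 0. The type with the highest level moved for some genes. In the library labelled knockout Wnt5a was highest in stroma with exclusive gates, with at most 5% mt- UMIs and with Scrublet doublets left out. Sfrp2 in wild type was highest in Leydig cells with at most 5% mt- UMIs. With exclusive gates Sfrp1 was highest in stroma and Wnt4 in myoid cells in both libraries.

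Counts of members past 1.5-fold moved as follows. In Sertoli cells the count of 1 became 2 with exclusive gates (Wnt4, Sfrp1, 2 of 7 beside 5.62% of all genes), with Scrublet doublets left out (Wnt4, Sfrp2, 2 of 6 beside 6.75%) and with no UMI minimum (Wnt4, Lef1), and 0 with doubled gate thresholds, at most 5% mt- UMIs, means of per-cell CPM, germ-gated cells left out and a 2-fold rule. The Wnt4 ratio, 1.52 in the report, was 1.40 to 1.49 in the first 4 of these. Thinning kept it at 1, with Sfrp1 in place of Wnt4. In Leydig cells the count of 2 of 5 became 1 with exclusive gates (Wnt4), 0 of 3 with at most 5% mt- UMIs, thinning to 5000 UMIs and at least 200 UMIs, and 0 of 5 at 2-fold. In those 3 settings Wnt4 and Sfrp2 only lacked the UMIs: their ratios were 1.54 and 0.386 at 5% mt- UMIs, 1.77 and 0.387 when thinned, and as reported at 200 UMIs. In myoid cells 0 became 2 of 3 with exclusive gates (Wnt4, Sfrp1, beside 13.4%) and 1 with no minimum. In the Pax8 gate 0 became 1 when thinned and 7 of 9 with no minimum. In stroma 1 became 2 with no minimum (Rspo3, Lef1) and 0 at 2-fold, and the Rspo3 ratio stayed between 1.52 and 1.73 over 9 ways of choosing or scaling the cells. In germ cells 3 of 5 became 1 of 3 with exclusive gates and with germ-gated cells kept only where no other gate was passed (Sfrp2, beside 72.5%), 1 of 3 with at most 5% mt- UMIs (Wnt6, 68.9%), 2 of 2 with at least 200 UMIs (Wnt6, Sfrp1, 69.2%), 4 of 5 with Scrublet doublets left out and with CPM outside ribosomal protein and mt- genes (Wnt5a added in both, 70.0% and 65.9%) and 5 of 9 with no minimum. Means of per-cell CPM kept 3, with Lef1 in place of Sfrp1. Shares past the fold over all genes moved too: with no minimum they were 36.7% in Sertoli, 67.9% in Pax8-gated, 32.4% in myoid, 32.9% in stroma and 81.8% in germ cells, and the thinned Pax8 share was 30.0%. A higher UMI minimum or fewer UMIs takes members out of the count by construction, and the cause of the other moves was not tested. Exclusive gates and doubled thresholds left no member with 50 UMIs in the Pax8 gate, and thinning left none in germ cells. No called ratio changed direction. Leaving out germ-gated cells and restricting the types compared were chosen after seeing the data. The 12 germ cells of the library labelled knockout limit every germ value.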
